A study of Homo sapiens with 6 samples.

Results

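The genes described here are 37 genes of the integrated stress response and the unfolded protein response, out of 38100 genes in the deposited tables. They were chosen by symbol for their known roles. They fall into a group of 19 genes around the transcription factor ATF4, which holds ATF4, its partners and targets and the subunits that lead eIF2 phosphatase to its substrate, and a group of 18 genes of the endoplasmic reticulum (ER) and the stress sensors. All 37 had a row in both tables and passed the filter on low counts, as did 17720 of the 38100 genes. The cells were HK2, an immortalized line from human kidney tubular epithelium. AdCtrl cells received a control adenovirus and AdSIRT4 cells an adenovirus carrying SIRT4, a mitochondrial sirtuin. The genotype was labelled WT in both groups and all samples were stimulated with TGF-β1, a profibrotic cytokine, so that no sample shows the cells without virus or without TGF-β1. Its dose and duration are not in the sample labels. Each group had 3 samples, and the comparison asked how SIRT4 overexpression altered expression in TGF-β1-treated cells. The study describes its replicates in vitro as technical, and p-values then measure only the spread between these samples. The cell-line label counts up from HK2 over the samples while the titles say HK2 for each, and all samples were taken as HK2.

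Cells under stress phosphorylate the translation factor eIF2. Of its kinases, EIF2AK1 (HRI) responds to heme shortage and mitochondrial stress, EIF2AK3 (PERK) to misfolded proteins in the ER, and EIF2AK4 (GCN2) to amino acid shortage. Phosphorylated eIF2 lowers general translation but raises translation of ATF4, which then induces genes for amino acid uptake, serine and asparagine synthesis and redox balance. In the unfolded protein response, ERN1 (IRE1) splices XBP1 mRNA and ATF6 is cleaved, and both then induce ER chaperones and degradation factors. TGF-β1 is known to raise serine and glycine synthesis through ATF4 in fibroblasts. Phosphorylation, splicing, cleavage and translation are not measured by counts per gene.

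The libraries held 41537353 to 85684748 counts. SIRT4, the gene carried by the virus, was at 0.573, 1.11 and 1.11 normalized counts scaled to library size (CPM) in AdCtrl replicates 1, 2 and 3 and at 51.2, 92.7 and 84.0 CPM in the AdSIRT4 replicates, as the labels imply. AdSIRT4 replicate 1 stood apart from the other libraries. Its chi-square per gene against the other AdSIRT4 replicates was 129 and 173, against 7.92 to 18.8 for other pairs within a group, and its differences followed gene length, as shown for the stress genes later. Of 16 tubular epithelium markers, 8 had a mean of at least 10 CPM, with EPCAM, KRT8, KRT18 and PAX8 among them. The brush border and transport genes LRP2, CUBN, AQP1, ANPEP and SLC34A1 were below 1 CPM in every sample, as was CDH1. The 16 markers summed to 1913 to 1998 CPM in AdCtrl and 1830 to 2413 CPM in AdSIRT4 samples. In bulk RNA, fewer cells of a type and less RNA per cell cannot be told apart. At an adjusted p under 0.05 in edgeR, 2 of 17720 genes (0.0113%) were called, SIRT4 and ADAMTS1, and none was a stress response gene.

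Most ATF4 targets had a lower mean with SIRT4, but few passed a test. With all samples, no ER chaperone or stress sensor had an unadjusted p under 0.05 in edgeR, where 7.93% of all genes did. Enzymes of serine synthesis (PSAT1), asparagine synthesis (ASNS) and the stress-induced sestrin SESN2 were the members lower at an unadjusted p under 0.05, and the factor ATF5 was the member higher at that threshold. ATF4 mRNA itself had overlapping groups, with a log2 fold change of 0.11. Counted over the 19 genes around ATF4, 15 had a fold change below 0 on the log2 scale and 4 above, with a median log2 fold change of -0.24 against 0.02 for all genes tested. Of the 18 ER and sensor genes, 11 lay below 0 and 7 above, with a median of -0.05. The 4 members with an unadjusted p under 0.05 in edgeR were 3 of 19 lower and 1 of 19 higher, where 3.5% of all genes were lower and 4.43% higher at that threshold. No member was called after Benjamini-Hochberg adjustment over all genes in edgeR, with adjusted p from 0.49 to 0.98. DESeq2 called PSAT1 (adjusted p = 0.029), where it called 1.16% of all genes. The limma-voom fit with sample weights, which called 9.51% of all genes, called 7 of the 19 (PHGDH, PSAT1, PSPH, SHMT2 and SESN2 lower, ATF5 and STC2 higher). The per-sample plot of both groups of genes shows these differences.

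**Figure D1:**
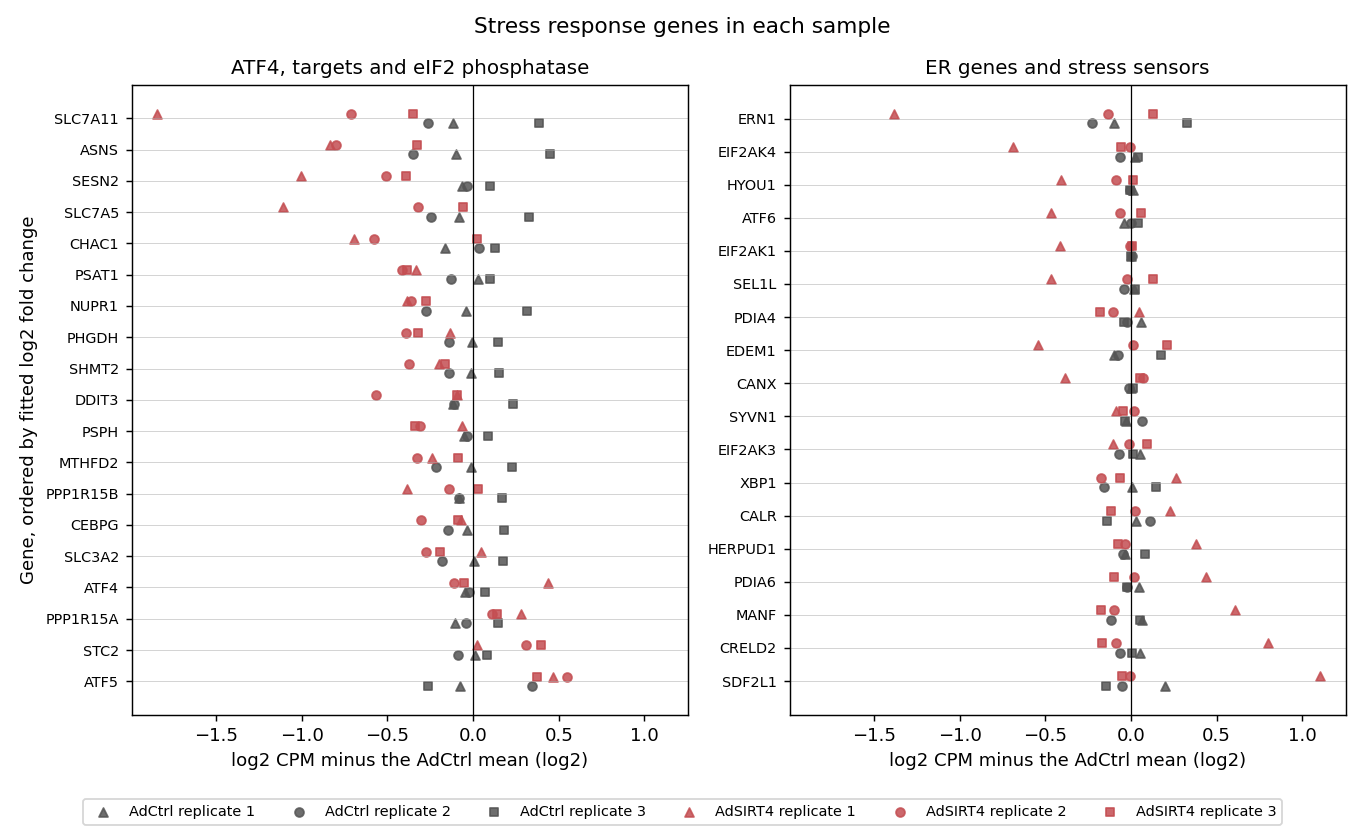
Each point is the log2 CPM of a gene in a sample minus the AdCtrl mean of that gene, in log2 units, with AdCtrl samples in grey and AdSIRT4 samples in red and the replicate given by the shape. In the left panel most red points lie left of 0, and the grey squares of AdCtrl replicate 3 lie right of 0 for 18 of 19 genes. In the right panel the red triangles of AdSIRT4 replicate 1 spread most widely, between -1.38 and 1.10. Some of them lie near the other points, such as PDIA4 at 0.04 and SYVN1 at -0.09.

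ATF4, at chr22:39520559-39522686 in GRCh38.p14, is the factor made when eIF2 is phosphorylated. Its level was 432, 440 and 469 CPM in AdCtrl and 603, 414 and 430 CPM in AdSIRT4 replicates 1 to 3. AdSIRT4 replicate 1 was above all other samples and the other two AdSIRT4 samples lay below all AdCtrl samples, so that the groups overlapped. The fitted log2 fold change was 0.11 ± 0.17 (SE), and without AdSIRT4 replicate 1 it was -0.09 (adjusted p = 0.35, edgeR). DDIT3 (CHOP), a factor induced downstream of ATF4 and linked to cell death, was at 37.5, 37.8 and 47.8 CPM in AdCtrl and 38.2, 27.5 and 38.3 CPM in AdSIRT4. AdCtrl replicate 3 was highest and AdSIRT4 replicate 2 lowest, with the other samples within 1 CPM of each other, and the log2 fold change was -0.24 ± 0.17 (SE; unadjusted p = 0.19 in edgeR). CEBPG, the C/EBP protein that pairs with ATF4 on DNA, was at 37.1 to 46.5 CPM in AdCtrl and 33.3 to 39.1 CPM in AdSIRT4, with a log2 fold change of -0.16 ± 0.12 (SE).

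ATF5, a factor with a role in the mitochondrial unfolded protein response, went the other way. It was at 13.1, 17.6 and 11.5 CPM in AdCtrl and at 19.1, 20.3 and 17.9 CPM in AdSIRT4. The groups did not overlap, although AdCtrl replicate 2 came within 1 CPM of the lowest AdSIRT4 sample. The log2 fold change was 0.44 ± 0.17 (SE; unadjusted p = 0.032 and adjusted p = 0.61 in edgeR). Without AdCtrl replicate 3 it was 0.32 (unadjusted p = 0.11 in edgeR). A two-sided exact permutation test on all samples gave p = 0.1, the smallest it can give with 3 samples against 3.

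Serine is made from a glycolytic intermediate by PHGDH, PSAT1 and PSPH in turn, and SHMT2 and MTHFD2 pass its carbon into mitochondrial folates. All of these enzymes had a mean below that of AdCtrl. PSAT1 (chr9:78297125-78330093) was at 110, 98.5 and 115 CPM in AdCtrl and 85.4, 80.9 and 82.4 CPM in AdSIRT4. Every AdSIRT4 sample was below every AdCtrl sample, and the AdSIRT4 samples lay close together (82.9 ± 2.29 CPM, SD, n = 3, against 108 ± 8.48 CPM, SD, n = 3). PSAT1 had the smallest p of the members, with a log2 fold change of -0.38 ± 0.10 (SE; unadjusted p = 0.0053 and adjusted p = 0.49 in edgeR). PSPH, which releases serine, was at 59.9, 60.7 and 66.0 CPM in AdCtrl and 59.3, 50.1 and 49.2 CPM in AdSIRT4, where AdSIRT4 replicate 1 nearly reached the AdCtrl samples (log2 fold change -0.24 ± 0.11, SE). SHMT2 was at 181 to 222 CPM in AdCtrl and 154 to 178 CPM in AdSIRT4 (log2 fold change -0.25 ± 0.12, SE), and for both enzymes the groups did not overlap. PHGDH, the entry enzyme, was at 202, 184 and 224 CPM in AdCtrl and 185, 155 and 162 CPM in AdSIRT4, with a log2 fold change of -0.28 ± 0.12 (SE; unadjusted p = 0.050 in edgeR). AdSIRT4 replicate 1 was just above AdCtrl replicate 2, so the groups overlapped. MTHFD2 was at 107 to 147 CPM in AdCtrl and 99.8 to 117 CPM in AdSIRT4, with overlap, and its log2 fold change was -0.23 ± 0.14 (SE).

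ASNS (chr7:97851677-97928441), which makes asparagine, was at 47.9, 40.3 and 70.0 CPM in AdCtrl and 28.8, 29.5 and 40.9 CPM in AdSIRT4. AdCtrl replicate 3 stood far above its group and AdSIRT4 replicate 3 reached the lowest AdCtrl sample, so the groups overlapped. The log2 fold change was -0.67 ± 0.23 (SE; unadjusted p = 0.024 and adjusted p = 0.59 in edgeR), and without AdCtrl replicate 3 it was -0.42 (unadjusted p = 0.081 in edgeR). SESN2 (chr1:28259518-28282491), a sestrin that restrains the growth kinase complex mTORC1, was at 77.1, 78.7 and 86.4 CPM in AdCtrl and 40.2, 56.8 and 61.4 CPM in AdSIRT4. Its groups did not overlap, and AdSIRT4 replicate 1 was the lowest sample. The log2 fold change of SESN2 was -0.61 ± 0.16 (SE; unadjusted p = 0.0074 and adjusted p = 0.49 in edgeR), and without AdSIRT4 replicate 1 it was -0.46. CHAC1, which degrades glutathione, had 9.51 to 11.6 CPM in AdCtrl and 6.57 to 10.8 CPM in AdSIRT4 (log2 fold change -0.38 ± 0.20, SE).

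Among the amino acid transporters, SLC7A11, the cystine importer that feeds glutathione synthesis, had the lowest fold change of the members. It was at 27.1, 24.5 and 38.4 CPM in AdCtrl and 8.19, 18.0 and 23.1 CPM in AdSIRT4. The groups did not overlap, and AdSIRT4 replicate 1 was far below the rest. The log2 fold change was -0.86 ± 0.37 (SE; unadjusted p = 0.050 in edgeR) with all samples and -0.55 without AdSIRT4 replicate 1. SLC7A5, the large neutral amino acid transporter, was at 52.4 to 77.9 CPM in AdCtrl and 28.7 to 59.5 CPM in AdSIRT4, and its log2 fold change was -0.45 ± 0.28 (SE) with all samples and -0.21 without AdSIRT4 replicate 1. SLC3A2, the heavy chain that both of these transporters bind, was at 112 to 143 CPM in AdCtrl and 105 to 131 CPM in AdSIRT4, with a log2 fold change of -0.14 ± 0.13 (SE).

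**Figure D2:**
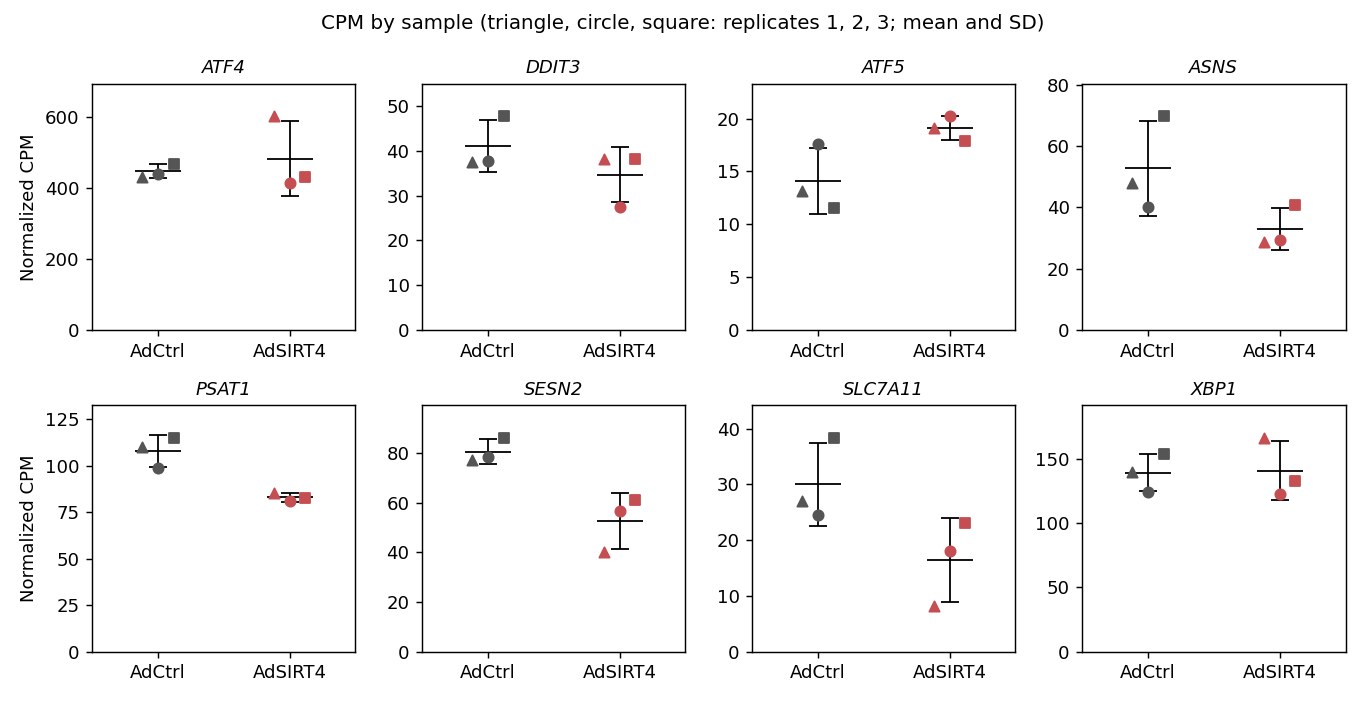
Normalized CPM of 8 stress response genes in each sample on linear axes that start at 0, with AdCtrl in grey, AdSIRT4 in red, and the mean and SD (n = 3) as black bars. PSAT1, SESN2 and SLC7A11 show AdSIRT4 samples below all AdCtrl samples and ATF5 shows them above, while ATF4, DDIT3, ASNS and XBP1 overlap.

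STC2, a secreted glycoprotein induced by ATF4, was higher in AdSIRT4 replicates 2 and 3 than in any other sample. It was at 117, 110 and 123 CPM in AdCtrl and 118, 145 and 153 CPM in AdSIRT4, and the log2 fold change was 0.25 ± 0.12 (SE; unadjusted p = 0.081 in edgeR). NUPR1, a small stress-induced nuclear protein, was low in all samples, at 1.53 to 2.30 CPM in AdCtrl and 1.41 to 1.53 CPM in AdSIRT4, and its groups all but touched. PPP1R15A (GADD34), the inducible subunit that brings the phosphatase to eIF2, was at 53.0 to 62.8 CPM in AdCtrl and 61.5 to 69.2 CPM in AdSIRT4 (log2 fold change 0.18 ± 0.10, SE). PPP1R15B (CReP), the constitutive subunit, was at 186 to 221 CPM in AdCtrl and 151 to 201 CPM in AdSIRT4 (log2 fold change -0.16 ± 0.14, SE). Both had overlapping groups.

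Over the 19 genes around ATF4, the groups did not overlap in CPM for 6 lower genes (PSAT1, PSPH, SHMT2, SESN2, SLC7A11 and NUPR1) and 1 higher gene (ATF5). Of all genes, 9.77% were lower and 9.66% higher without overlap. Samples with the same replicate number deviated together weakly across genes (correlations of 0.159 to 0.178), though the labels do not say what a number marks. Each AdSIRT4 sample was therefore also set against the AdCtrl sample of its number. In all 3 pairs, 13 of the 19 genes were lower and 2, ATF5 and STC2, were higher, against 17.7% of all genes lower and 18.3% higher. The pair medians over the 19 genes were -0.19, -0.16 and -0.32 on the log2 scale. With the replicate number as a block in edgeR, 7 of the 19 had an unadjusted p under 0.05, against 3.12% of all genes lower and 4.08% higher. These were ASNS, PSAT1, CHAC1, SESN2, SLC7A11 and SLC7A5, which were lower, and ATF5, which was higher, and none had an adjusted p under 0.05 (0.64 to 0.69).

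These counts depended on which library was in the fit. AdCtrl replicate 3 was above the AdCtrl mean for 18 of the 19 genes, with a median difference of 0.15 on the log2 scale, although it was above the mean for 52% of all genes. The AdCtrl medians were -0.05, -0.13 and 0.15 for replicates 1 to 3 and the AdSIRT4 medians -0.20, -0.33 and -0.09, so that AdSIRT4 replicate 3 lay above AdCtrl replicate 2. Without AdCtrl replicate 3, 2 of the 19 genes (PSAT1 and SESN2, both lower) had an unadjusted p under 0.05 in edgeR, where 4.11% of all genes had one in either direction, and the median was -0.17. Without AdSIRT4 replicate 2 the count was also 2 (all genes 5.92%), without AdCtrl replicate 1 it was 3 (3.7%), without AdCtrl replicate 2 it was 5 (4.6%) and without AdSIRT4 replicate 3 it was 7 (8.35%).

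Without AdSIRT4 replicate 1, 8 of the 19 genes had an unadjusted p under 0.05, but so did 24.3% of all genes. In that fit PHGDH, PSAT1, PSPH and SESN2 were called lower at an adjusted p under 0.05 in edgeR and STC2 was called higher, where 3.34% of all genes were lower and 3.37% higher. The log2 fold changes were -0.37 for PHGDH (adjusted p = 0.020, edgeR), -0.41 for PSAT1, -0.33 for PSPH, -0.46 for SESN2 and 0.35 for STC2. The sign of each was that of the fit with all samples. ASNS was at -0.59 with an adjusted p of 0.38 in edgeR.

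The length-corrected order of the levels, from the second table, which was read as FPKM (fragments scaled for gene length and library size), was led by ATF4 at 268 ± 20.2 FPKM (SD, n = 3) in AdCtrl. PHGDH (95.2 ± 12.3 FPKM) and SHMT2 (82.6 ± 11.2 FPKM) followed, with ranges of mean ± SD that overlapped, then SLC3A2 (58.8 ± 9.37 FPKM) and PSAT1 (43.4 ± 4.77 FPKM). At the low end were ATF5 (5.97 ± 1.12 FPKM), SLC7A11 (2.79 ± 0.779 FPKM) and NUPR1 (0.311 ± 0.0747 FPKM). Of the ER genes, CALR was highest at 413 ± 23.2 FPKM, followed by PDIA6 (169 ± 6.73 FPKM), CANX (113 ± 4.59 FPKM) and XBP1 (68.1 ± 9.31 FPKM). The kinase EIF2AK1 (36.9 ± 1.12 FPKM) was above EIF2AK3 (8.56 ± 0.584 FPKM) and EIF2AK4 (5.80 ± 0.392 FPKM), and the sensor ERN1 was lowest (2.03 ± 0.493 FPKM).

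Promoter sequence is shown for genes of the ATF4 group in which a match of the C/EBP-ATF response element, the site that ATF4 binds with C/EBP proteins, lay before the start. The letters TGATGNAA were searched on both strands in RefSeq promoters of GRCh38.p14, which run from 250 bases before to 50 bases after the start listed first for a gene. A promoter was found for 32 of the 37 genes, and those of PSPH, SHMT2, SLC7A11, NUPR1 and EIF2AK1 were not used here. Of 15 genes around ATF4, 4 (26.7%) held the element, against 3.67% of 27305 promoters. These were ASNS, CHAC1, PPP1R15B and SLC3A2, and the match of SLC3A2 lay after the start. Of 17 ER and sensor genes, HERPUD1 (5.88%) held it, at positions -176 to -169. Capitals mark the element in the stretches of ASNS (chr7:97872449-97872496, minus strand), CHAC1 (chr15:40953242-40953289, plus strand, where the element reads on the other strand) and PPP1R15B (chr1:204412017-204412064, minus strand).
ASNS: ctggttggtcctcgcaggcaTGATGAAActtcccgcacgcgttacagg
CHAC1: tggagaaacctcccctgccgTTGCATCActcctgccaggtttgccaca
PPP1R15B: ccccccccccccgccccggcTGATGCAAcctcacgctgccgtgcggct
The element of ASNS lay at positions -68 to -61 from the start. In the fit, ASNS was at -0.67, CHAC1 at -0.38 and PPP1R15B at -0.16 on the log2 scale. PSAT1 and SESN2, which had smaller p, held no match in these windows.

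Other ATF4 targets from a list of 30 genes, of which 29 were tested, were 7 lower and 1 higher at an unadjusted p under 0.05 in edgeR, with a median log2 fold change of -0.19, where 3.5% of all genes were lower and 4.43% higher. The 3 with the smallest p were DDIT4 (REDD1, an inhibitor of mTORC1), CTH (which makes cysteine) and SESN3. DDIT4 was at 162, 155 and 175 CPM in AdCtrl and 129, 110 and 127 CPM in AdSIRT4, without overlap, and its log2 fold change was -0.43 ± 0.11 (SE; adjusted p = 0.49 in edgeR). CTH was at 17.8, 13.7 and 18.5 CPM against 10.4, 9.43 and 12.3 CPM (log2 fold change -0.64 ± 0.16, SE), and SESN3 was near 1 CPM in AdCtrl and at 0.468 to 0.684 CPM in AdSIRT4. The higher target was ATF3, at 24.6, 28.0 and 29.6 CPM in AdCtrl and 32.8, 36.4 and 38.2 CPM in AdSIRT4, without overlap. Its log2 fold change was 0.39 ± 0.11 (SE; unadjusted p = 0.011 and adjusted p = 0.53 in edgeR). For 12 cytosolic aminoacyl-tRNA synthetases, which load amino acids onto tRNA and are induced by ATF4, 6 were lower and none higher at that threshold (all genes 3.5% and 4.43%), with a median of -0.27. YARS1 (-0.37), CARS1 (-0.30) and AARS1 (-0.52) had the smallest p.

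AdCtrl replicate 3 was again high in both lists, above the AdCtrl mean for 28 of 29 targets and 12 of 12 synthetases. Without it, 3 targets and no synthetase were lower at an unadjusted p under 0.05 in edgeR, where 292 of all 18280 genes tested were lower. The count of lower synthetases was 1 without AdCtrl replicate 1, 1 without AdSIRT4 replicate 2, 6 without AdCtrl replicate 2, 6 without AdSIRT4 replicate 3 and 7 without AdSIRT4 replicate 1. For the lower targets it was 4, 3, 7, 8 and 13 in the same order. Of all genes tested, 297 of 18050, 434 of 17962, 320 of 18232, 629 of 17976 and 2279 of 18287 (12.5%) were lower in these fits, in that order. No gene of these lists had an adjusted p under 0.05 with all samples in edgeR. DESeq2 called 2 targets and no synthetase, where it called 1.16% of all genes. Voom with sample weights called 8 targets lower, 1 target higher and 6 synthetases lower, where it called 9.51% of all genes. Without AdSIRT4 replicate 1, edgeR called 5 targets lower, 1 target higher and no synthetase. In that fit 3.34% of all genes were called lower and 3.37% higher.

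**Figure D3:**
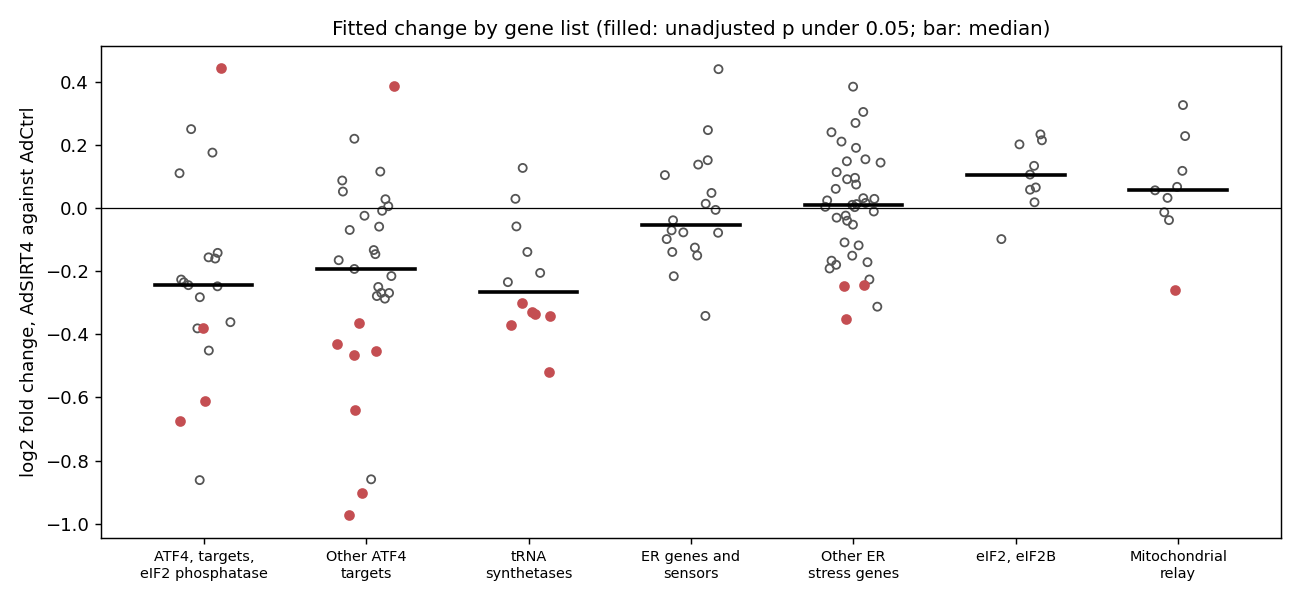
Fitted log2 fold change of each tested gene, AdSIRT4 against AdCtrl, in the 2 groups of stress response genes and in 5 other lists of the pathway, with filled points for an unadjusted p under 0.05 and a black bar for the list's median. The medians of the ATF4 genes, the other ATF4 targets and the synthetases lie at -0.24, -0.19 and -0.27, and those of the other lists between -0.05 and 0.11.

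No sensor passed the test, and the groups overlapped for each. EIF2AK1, the heme-regulated kinase, was at 184, 185 and 184 CPM in AdCtrl and 138, 184 and 185 CPM in AdSIRT4. EIF2AK3 (PERK) was at 45.3, 41.6 and 44.0 CPM in AdCtrl and 40.5, 43.3 and 46.5 CPM in AdSIRT4. EIF2AK4 (GCN2) was at 36.8, 34.7 and 37.2 CPM in AdCtrl and 22.5, 36.1 and 34.8 CPM in AdSIRT4. For each kinase AdSIRT4 replicate 1 was the lowest sample and the other AdSIRT4 samples lay near the AdCtrl samples. The log2 fold changes were -0.13 ± 0.13, -0.01 ± 0.10 and -0.22 ± 0.18 (SE).

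ATF6, the membrane-bound factor of the ER, was at 87.7, 90.1 and 92.5 CPM in AdCtrl and 65.2, 86.3 and 93.8 CPM in AdSIRT4. ERN1 was at 16.6, 15.2 and 22.4 CPM in AdCtrl and 6.83, 16.2 and 19.5 CPM in AdSIRT4. In both genes the low value of AdSIRT4 replicate 1 made up most of the mean difference, with log2 fold changes of -0.14 ± 0.14 and -0.34 ± 0.36 (SE) for all samples and -0.01 and -0.02 without it. XBP1, the factor whose mRNA ERN1 splices, was at 140, 125 and 154 CPM in AdCtrl and 167, 123 and 133 CPM in AdSIRT4. The groups overlapped, and the log2 fold change was 0.01 ± 0.15 (SE). Spliced and unspliced XBP1 are not separated in a count per gene.

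Of the chaperones and folding enzymes, SDF2L1 had the smallest p of the 18 ER and sensor genes (unadjusted p = 0.21 in edgeR). It was at 17.8, 14.9 and 14.0 CPM in AdCtrl and 33.3, 15.4 and 14.9 CPM in AdSIRT4. AdSIRT4 replicate 1 alone was high, and the log2 fold change was 0.44 ± 0.32 (SE) with it and -0.04 without it. MANF and CRELD2, secreted or luminal stress proteins, showed the same arrangement. MANF was at 34.2 to 38.8 CPM in AdCtrl and CRELD2 at 27.4 to 29.7 CPM, and AdSIRT4 replicate 1 was at 56.5 and 49.7 CPM. They had log2 fold changes of 0.15 ± 0.21 and 0.25 ± 0.26 (SE) and of -0.14 and -0.13 without that sample. CALR and CANX, the lectin chaperones, had log2 fold changes of 0.05 ± 0.14 and -0.07 ± 0.15 (SE). In AdCtrl samples CALR was at 804 to 958 CPM and CANX at 622 to 633 CPM, and AdSIRT4 replicate 1 had the highest CALR and the lowest CANX (481 CPM) of all samples. The disulfide isomerases PDIA4 and PDIA6 had log2 fold changes of -0.08 ± 0.10 and 0.14 ± 0.16 (SE). PDIA6 was at 591 CPM in AdSIRT4 replicate 1 and at 407 to 449 CPM in the other samples. HYOU1, an exchange factor for the ER chaperone BiP, was at 155 to 157 CPM in AdCtrl and 118 to 157 CPM in AdSIRT4 (log2 fold change -0.15 ± 0.12, SE).

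The groups also overlapped for the ER degradation genes. HERPUD1, a membrane scaffold of the pathway, had a log2 fold change of 0.10 ± 0.14 (SE) and EDEM1, which recognizes mannose-trimmed proteins, of -0.08 ± 0.20 (SE). SEL1L and SYVN1 (HRD1), which form the ubiquitin ligase complex, were at -0.10 ± 0.16 and -0.04 ± 0.09 (SE). SYVN1 varied little, at 26.9 to 28.8 CPM in AdCtrl and 25.9 to 27.9 CPM in AdSIRT4. Over the 18 genes, 0 had an unadjusted p under 0.05 in edgeR or DESeq2, where 7.93% and 9.24% of all genes did. In CPM the groups overlapped for all 18, where 9.77% of all genes were lower and 9.66% higher without overlap. In same-number pairs, 2 (PDIA4 and SYVN1) were lower and 1 (SDF2L1) higher in all 3 pairs, where 17.7% of all genes were lower and 18.3% higher. Without AdSIRT4 replicate 1, PDIA4 had an unadjusted p of 0.022 in edgeR, with a log2 fold change of -0.15 and an adjusted p of 0.13. In that fit 24.3% of all genes had an unadjusted p under 0.05.

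The values of AdSIRT4 replicate 1 followed gene length. The length was implied by the ratio of the deposited tables and ran from 0.943 kb for SDF2L1 to 10.9 kb for SLC7A11. In AdSIRT4 replicate 1 the short genes SDF2L1, CRELD2 and MANF were above the AdCtrl mean by 1.10, 0.80 and 0.61 on the log2 scale, and the long genes ERN1 and SLC7A11 were at -1.38 and -1.84. Spearman's rho between length and that difference was -0.936 over the 18 ER and sensor genes and -0.539 over the 19 genes around ATF4. In AdSIRT4 replicates 2 and 3 it was 0.092 and 0.808 over the ER and sensor genes and 0.004 and -0.070 over the ATF4 genes. The positive value in replicate 3 came with small differences, from -0.18 to 0.21. These are descriptions across genes of the same library, which share its depth and preparation. The part of the length trend in the fold changes of single genes was not tested beyond the fits without that library and with the trend removed.

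**Figure D4:**
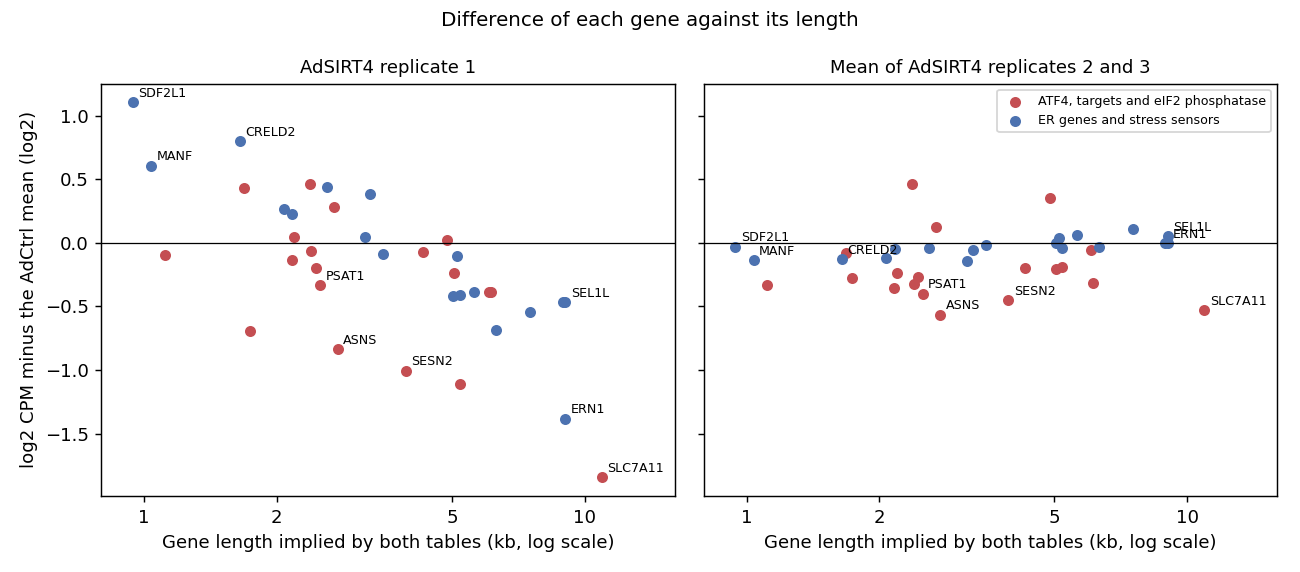
Each point is a stress response gene, with the gene length in kb on a log axis and the log2 CPM minus the AdCtrl mean on the vertical axis, for AdSIRT4 replicate 1 on the left and the mean of AdSIRT4 replicates 2 and 3 on the right. On the left the points run from 1.10 for SDF2L1 down to -1.84 for SLC7A11, and on the right the ER and sensor genes (blue) lie near 0 at all lengths while most ATF4 genes (red) lie below 0.

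After the trend of each library on gene length was removed, the median of the 19 ATF4 genes was -0.29 and that of the 18 ER and sensor genes -0.02 on the log2 scale. PSAT1 was then at -0.42, SESN2 at -0.60, PHGDH at -0.35 and ATF4 at 0.00. No member had an adjusted p under 0.05 in that edgeR fit. The smallest was 0.13, for PSAT1.

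Promoters of the ER genes held other elements. The ER stress response element, CCAAT and CCACG separated by 9 bases and bound by ATF6 with NF-Y, matched in 4 of 17 promoters (23.5%), those of CALR, CANX, CRELD2 and XBP1, against 0.0806% of all promoters. The second ER stress element, ATTGG and CCACG separated by 1 base, matched in 3 of 17 (17.6%), those of HERPUD1, HYOU1 and SDF2L1, against 0.0549%. The unfolded protein response element TGACGTGG, to which spliced XBP1 and ATF6 bind, matched in HYOU1 alone of the members, against 0.795% of all promoters. None of the 15 ATF4 gene promoters held any of these elements. The stretches of SDF2L1 (chr22:21642094-21642144, plus strand) and HYOU1 (chr11:119057360-119057410, minus strand) are shown because they had the smallest p of the ER genes with a match. Capitals mark the second ER stress element, which reads on the other strand in both.
SDF2L1: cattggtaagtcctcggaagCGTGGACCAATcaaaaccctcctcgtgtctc
HYOU1: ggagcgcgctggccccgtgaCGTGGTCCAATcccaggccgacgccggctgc
In HYOU1 the element overlaps the match of TGACGTGG, and another copy of it lies at positions -79 to -69 from the start. SDF2L1 and HYOU1 had log2 fold changes of opposite sign with all samples, 0.44 and -0.15, and of -0.04 each without AdSIRT4 replicate 1.

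Of 39 other ER stress genes, 3 were lower and none higher at an unadjusted p under 0.05 in edgeR (all genes 3.5% and 4.43%), with a median log2 fold change of 0.01. With the replicate block 1 was lower and 1 higher (all genes 3.12% and 4.08%), and without AdCtrl replicate 2 none passed (4.6% in either direction). Without AdSIRT4 replicate 1, 7 were lower and 3 higher, where 2279 and 2167 of all 18287 genes tested were. The 3 genes lower with all samples were CREB3L1, FKBP14 and MBTPS2. CREB3L1 (OASIS, a factor of collagen-secreting cells) was at -0.35 and FKBP14 (a collagen prolyl isomerase) at -0.25. MBTPS2, a protease that cleaves ATF6, was at -0.25. Another list of 9 genes held the subunits of eIF2 and its exchange factor eIF2B and the eIF2 kinase EIF2AK2 (PKR). None passed that threshold in edgeR (all genes 7.93%), and the median was 0.11. DESeq2 found 1 of them higher, where 917 of all 17720 genes tested were. EIF2S1, the phosphorylated subunit, was at 70.5, 66.9 and 68.6 CPM in AdCtrl and 90.6, 74.7 and 77.0 CPM in AdSIRT4, without overlap (log2 fold change 0.23 ± 0.10, SE; unadjusted p = 0.058 in edgeR). EIF2S2 was at 0.20 and EIF2B1 at 0.21, with AdSIRT4 replicate 1 highest in both. Of 9 genes listed for mitochondrial stress, 1 was lower in edgeR, ATF2 at -0.26 (all genes 3.5%), and none with the replicate block (3.12%). At an adjusted p under 0.05, ATF2 was called lower with voom weights (9.51% of all genes called) and without AdSIRT4 replicate 1 (3.34% called lower). The chaperonins HSPD1 and HSPE1 were at 0.23 and 0.33 with overlapping groups. OMA1 and DELE1, which carry the mitochondrial signal to EIF2AK1, were at 0.07 ± 0.11 and -0.04 ± 0.09 (SE).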

How the data were processed

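RNA of HK2 cells was sequenced as poly(A) libraries in 2 groups of 3 samples. The authors deposited raw whole-number counts for 38100 genes and another table of these genes that names no unit. Its deposited values were read as FPKM from how they scale with the counts. Per the submitters' processing notes, fastp 0.21.0, HISAT2 2.1.0, StringTie 2.1.5 and DESeq2 1.30.1 were used with hg38, in roles that are not given. The rules for counting strand, overlapping genes and reads shared with pseudogenes are not given in the sources used here, so genes with copies, such as PSPH, are uncertain.

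Counts were tested here with edgeR 4.0.16 in R 4.3.3 (TMM, filterByExpr with a minimum count of 10, robust quasi-likelihood test, Benjamini-Hochberg adjustment over all genes). CPM use TMM-scaled library sizes. An exact permutation test (two-sided) was added for single genes. Alternatives used RLE factors, DESeq2 1.42.0, limma 3.58.1 on log2(FPKM + 1) or log2(FPKM + 0.1), other filters, voom weights, removal of length trends (lowess, span 0.3), the replicate number as a block and leaving out each sample. The fits were also run on simulated counts without pairing, whose changes were larger than most fold changes of the members. Those runs do not cover changes as small as most of those reported here. A count of 0 allows up to 3 counts, 0.0348 to 0.0770 CPM by library, for counting error only. Total counts are in the report and every member had at least 55 counts in every sample.

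Groups came from the sample titles. Correlations of deviations from the group means across genes were 0.178, 0.159 and 0.176 for samples of the same number and -0.188 to 0.030 for others. The numbers were therefore read as pairing the samples, since each was over 0.1, but the labels do not say what a number marks. The pairing was thus inferred from these same data. Deviations within a group cancel out, so correlations of both signs had to occur.

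The members, gene lists and alternatives were chosen with earlier results of these data known. Named genes are all 37 members, given in every sample where the unadjusted p was under 0.05 and for ATF4, DDIT3, XBP1, ATF6, ERN1 and the eIF2 kinases, and the 3 smallest p of each other list. Per-sample values of STC2, PHGDH, PSPH, SLC7A11, SDF2L1, EIF2S1, DDIT4, CTH and ATF3, and OMA1 and DELE1, were added after their values were seen.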

Additional observations from a re-analysis of the deposited data

How the results depend on the processing

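The members had enough counts for a test, so that 3 samples a group, replicates that may be technical, the library that followed gene length and counting rules that are not known limit what any p describes. With RLE factors every count and median of the members kept its direction and its side of the threshold. In edgeR with all samples, 2 of all genes had an adjusted p under 0.05. The count was 206 with DESeq2, 5 with all genes of at least 1 count, 4 with at least 10 counts in every sample, 12 with the length trend removed, 6 with the trend removed and the replicate block, 1685 with voom and sample weights, 0 with limma on log2(FPKM + 1) with or without the replicate block, 1 with log2(FPKM + 0.1), 5 where the mean FPKM reached 1, and 0 to 1227 when leaving out each sample, highest without AdSIRT4 replicate 1. The replicate block, set because the numbers were read as pairing the samples, gave 1. SIRT4 itself was called in 14 of the 19 fits, and in none of those with a count of 0.

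Of the 19 ATF4 genes, 4 had an unadjusted p under 0.05, and 7 with the replicate block, 7 of the 18 tested in limma where the mean FPKM reached 1, 9 with the length trend removed, 13 with trend removal and block, 14 with voom, and 2 to 8 when leaving out each sample. Of all genes, 7.93% had such a p, and 7.2%, 7.4%, 13.9%, 13.9%, 27.3% and 3.7% to 24.3% in these alternatives in turn. The count was 6 with DESeq2 (all genes 9.24%), 6 in each limma fit without that FPKM minimum (5.1% to 5.82%) and 5 with each other filter on counts (5.52% and 8.45%). Of the 18 ER and sensor genes it was 0, and 1 with trend removal and block, 1 with voom, and 0 to 1 when leaving out each sample. The block changed no call of a member at an adjusted p under 0.05. In FPKM the groups of SHMT2 and NUPR1 overlapped, with AdSIRT4 replicate 3 (74.0 and 0.254 FPKM) above AdCtrl replicate 2 (72.2 and 0.245 FPKM). Those of PHGDH and PDIA4 did not overlap in FPKM, unlike in CPM. For PHGDH the AdSIRT4 samples reached 80.3 FPKM and the lowest AdCtrl sample was at 83.4 FPKM. For PDIA4 these values were 56.9 and 57.3 FPKM. The median of the ER and sensor genes was -0.0945 with log2(FPKM + 0.1), and that of the ATF4 genes stayed between -0.317 and -0.1685 in all 18 alternatives. Promoter matches were found for 11 members in the whole window and for 10 in the 250 bases before the start.

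The sign of some fold changes turned, mostly where AdSIRT4 replicate 1 counted less. With voom weights the log2 fold change was -0.080 for ATF4, -0.132 for XBP1, 0.011 for EIF2AK3, -0.017 for CALR, 0.058 for CANX, -0.0057 for PDIA6, -0.020 for SDF2L1, -0.108 for MANF, -0.097 for CRELD2, -0.031 for HERPUD1, 0.062 for EDEM1, 0.0083 for SEL1L and -0.044 for HSPE1. With the length trend removed it was -0.065 for XBP1, 0.042 for EIF2AK3, -0.021 for CALR, -0.0077 for MANF and 0.0073 for SEL1L, and with the replicate block added -0.060, 0.043, -0.018, -0.0056 and 0.0074. XBP1 was at -0.028 in all fits on FPKM. When leaving out each sample the ranges were -0.088 to 0.215 for ATF4, -0.130 to 0.108 for XBP1, -0.057 to 0.036 for EIF2AK3, -0.055 to 0.126 for CALR, -0.142 to 0.059 for CANX, -0.045 to 0.243 for PDIA6, -0.042 to 0.639 for SDF2L1, -0.144 to 0.293 for MANF, -0.133 to 0.418 for CRELD2, -0.061 to 0.188 for HERPUD1, -0.243 to 0.104 for EDEM1, -0.227 to 0.050 for SEL1L, -0.0033 to 0.350 for HSPD1 and -0.123 to 0.550 for HSPE1. All of the 19 ATF4 genes except ATF4 itself kept their sign in every alternative that tested them. So did ATF6, ERN1, EIF2AK1, EIF2AK4, PDIA4, HYOU1 and SYVN1 of the ER and sensor genes, although SYVN1 reached -6.3e-06. All fits used the same samples or a part of them. The cause of the turns of sign was not tested.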
